A study of Mus musculus with 4 samples.

Results

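Interferon-stimulated genes were followed in mouse quadriceps, the large thigh muscle, as a set of 40 genes named by symbol. The set covers sensors of foreign nucleic acid, transcription factors of the interferon response, antiviral effectors, GTPases and ubiquitin-like modifiers. All 40 symbols were found among the 55573 gene IDs of the count files through GENCODE, and all 40 passed the filter on low counts that left 13076 genes for testing. The values were not used to choose them, but earlier results of these data were known when the set was drawn up.

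Each of the 4 libraries was made from total RNA of quadriceps muscle at 7 weeks of age. In the wild-type group (WT, strain C57BL/6J) there were 2 libraries, and in the knockout group (strain B6.129S4-Vdrtm1Mbd/J) there were 2. The knockout strain carries a targeted allele of Vdr, the gene of the vitamin D receptor, in every cell, so that effects in muscle and effects of the body-wide loss on other organs are measured together. Mice of both groups were fed regular chow, and the labels name no drug or diet treatment. No label ties the libraries to separate animals, so the p-values rest on a spread between libraries that may be only technical. In whole muscle, more cells of a type and more RNA per cell cannot be told apart.

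Interferons are secreted proteins that signal through paired receptors on the cell surface. Type I and type III interferons activate the kinases JAK1 and TYK2, and a complex that holds STAT2 and IRF9 then binds the interferon-stimulated response element (ISRE) in target promoters. Type II interferon acts through JAK1 and JAK2 and a second promoter element, the gamma-activated site (GAS). In skeletal muscle the target genes are best known from viral infection and from dermatomyositis, an inflammatory muscle disease in which muscle fibres carry a strong type I interferon signature.

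The promoters of 6 members are shown because they carry the ISRE, the DNA element through which type I interferon acts on such genes. RefSeq promoter entries on GRCm38.p6, from 250 bases before to 50 after a transcription start, matched 29 of the 40 members. A gene can have several entries, 34 for these 29, and a motif was counted for a gene if any of its entries held it. The other 11 were Ifi27l2a, Ifi27, Usp18, Mx1, Rtp4, Parp9, Oas2, Iigp1, Parp14, Dhx58 and Zbp1. The ISRE core, searched on both strands as GAAA, any 2 bases and GAAA again (on the reverse strand TTTC, any 2 bases and TTTC), was present for 15 of the 29 genes, which is 51.7%. Among all 27025 genes of the table, with 32851 entries of the same length, 1079 had it, which is 3.99%. The windows below are the 160 bases before the start, read 5′ to 3′ on the strand of the gene, with overlapping cores joined, and the capitals mark ISRE cores. They lie at chr4:156200819-156200978 (minus strand) for Isg15, chr19:34583369-34583528 (plus) for Ifit3, chr11:58199396-58199555 (plus) for Igtp, chr5:120907526-120907685 (minus) for Oas1a, chr12:26456453-26456612 (minus) for Rsad2 and chr8:71537473-71537632 (minus) for Bst2.
Isg15: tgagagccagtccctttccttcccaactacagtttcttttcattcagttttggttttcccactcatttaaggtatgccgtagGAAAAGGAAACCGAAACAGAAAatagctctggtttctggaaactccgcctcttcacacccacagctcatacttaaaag
Ifit3: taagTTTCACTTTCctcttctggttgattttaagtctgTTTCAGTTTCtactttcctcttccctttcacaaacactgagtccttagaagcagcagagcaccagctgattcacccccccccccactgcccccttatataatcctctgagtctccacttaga
Igtp: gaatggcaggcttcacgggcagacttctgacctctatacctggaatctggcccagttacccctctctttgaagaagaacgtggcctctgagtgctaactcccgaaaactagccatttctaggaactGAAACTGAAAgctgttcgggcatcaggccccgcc
Oas1a: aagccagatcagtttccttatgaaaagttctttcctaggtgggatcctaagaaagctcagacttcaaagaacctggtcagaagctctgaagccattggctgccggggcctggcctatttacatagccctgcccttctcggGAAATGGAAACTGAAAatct
Rsad2: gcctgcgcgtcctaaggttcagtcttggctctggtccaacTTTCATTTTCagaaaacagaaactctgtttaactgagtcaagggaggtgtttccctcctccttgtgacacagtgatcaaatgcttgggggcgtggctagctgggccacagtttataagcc
Bst2: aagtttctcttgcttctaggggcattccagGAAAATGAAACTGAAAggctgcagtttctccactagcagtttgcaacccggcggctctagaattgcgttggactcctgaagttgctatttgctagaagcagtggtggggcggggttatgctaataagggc
Isg15 had 3 overlapping cores in this window, Ifit3, Oas1a and Bst2 had 2 each, and Igtp and Rsad2 had 1 each. The GAS motif, searched as TTCNNNGAA, was found for 10 of the 29 genes (34.5%), against 9.55% of all genes of the table. A match is a string of letters in a window and not a measured binding site.

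The WT libraries held 10.79 M and 13.03 M counts and the knockout libraries 21.34 M and 11.21 M, so knockout replicate 1 was the deepest. Of the genes tested across the series, 2.03% were called, at an adjusted p below 0.05 in the quasi-likelihood test of edgeR. The counts of Vdr itself were 5 and 0 in WT and 5 and 1 in the knockout, too few to check the labels in this tissue. The muscle fibre markers Acta1, Ckm, Mb and 7 others summed to between 78370 and 85155 CPM (counts per 1000000 counts of a library, TMM-normalised) in the 4 libraries, and none of the 10 was called. Xist, the RNA that coats the inactive X chromosome, stood at 183 and 217 CPM in WT against 0 and 0.256 CPM in the knockout, and the Y-linked Ddx3y had 50 and 0 counts in WT against 1594 and 739 in the knockout. The groups thus differed in these markers of sex, and sex and genotype cannot be told apart. WT replicate 1 held Xist together with Y-linked counts, since Eif2s3y, Uty and Kdm5d had 21, 11 and 13 counts there. In WT replicate 2 they had 1, 0 and 0. The source of these counts was not tested. No member lies on the X or Y chromosome.

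In the knockout, 3 members rose: Ifi27l2a, Ifi27 and Lgals3bp. Across all tested genes, 1.61% were called higher and 0.413% lower. No member was called lower by edgeR, DESeq2 or limma-voom, and none was lower at an unadjusted p below 0.05. At that unadjusted level 17 of the 40 members were higher, where 8.08% of all tested genes were higher and 5.9% were lower. The log2 fold change was positive for 38 of the 40 members, against 49.9% of all tested genes, and negative for Trim25 and Dtx3l only, where the share among all genes was 50.1%. The median log2 fold change of the members was 0.58, with a median of all tested genes of -0.0007. In 24 members both knockout libraries were above both WT libraries, a pattern seen in 23% of all tested genes. The reverse pattern was seen in Trim25 alone and in 21.7% of all genes.

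**Figure D1:**
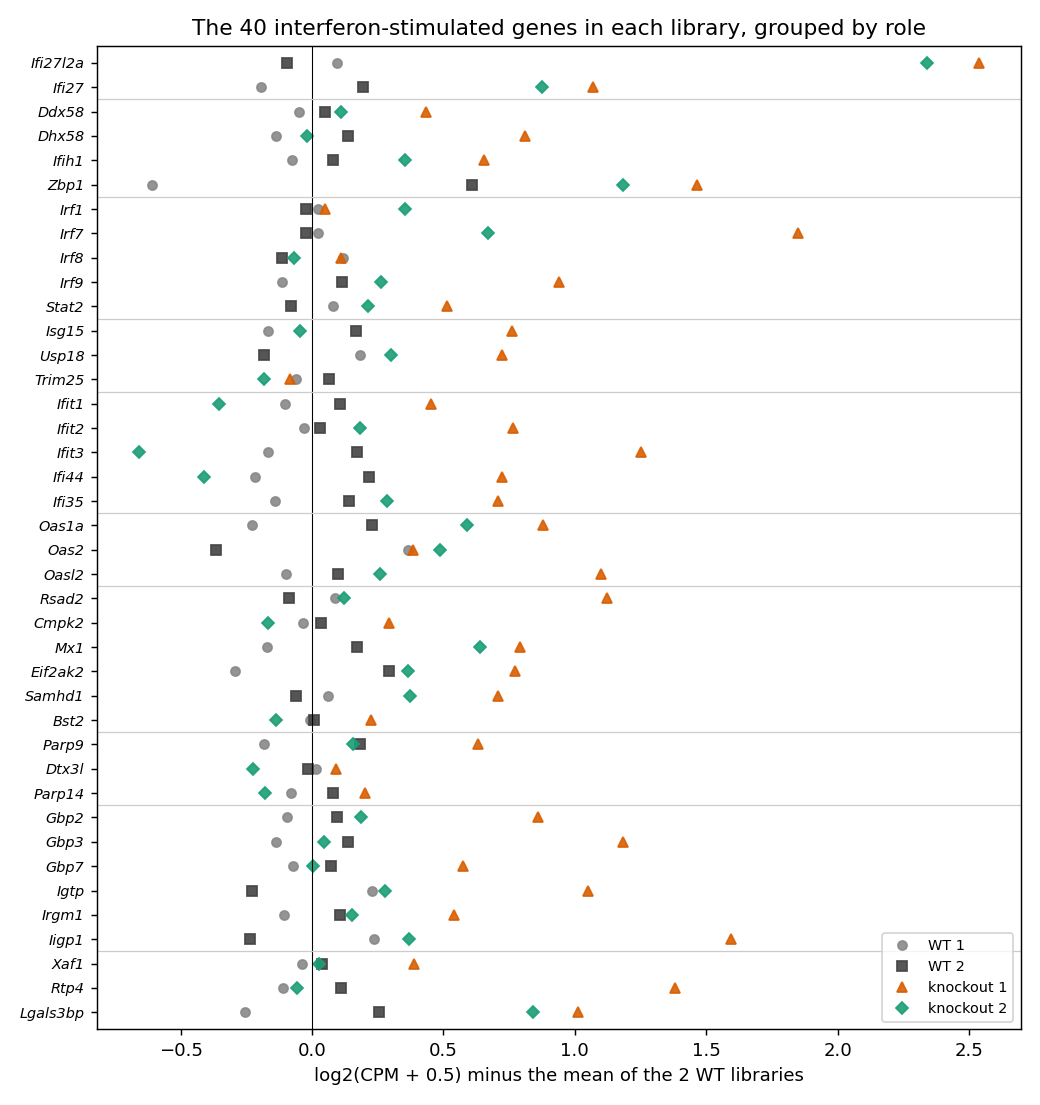
Each row is a member, in blocks by role from the Ifi27 pair at the top to Xaf1, Rtp4 and Lgals3bp at the bottom, and the horizontal axis is log2(CPM + 0.5) minus the mean of the 2 WT libraries. Grey marks are WT libraries, orange triangles knockout replicate 1 and green diamonds knockout replicate 2. Knockout replicate 1 is the highest library for 36 of the 40 members and for 25% of all tested genes. Ifi27l2a stands furthest to the right in both knockout libraries.

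Ifi27l2a, which encodes a small hydrophobic protein strongly induced by type I interferon, had the largest difference of the set (ENSMUSG00000079017, chr12:103442167-103443680, GRCm38). Its WT libraries read 59.1 and 51.8 CPM and its knockout libraries 324 and 282 CPM. Both knockout libraries were far above both WT libraries, and the gap between the groups was several times the gap within either. The means were 55.5 ± 5.18 CPM in WT against 303 ± 29.2 CPM in the knockout (SD, n = 2 each). The log2 fold change was 2.45 ± 0.14 (SE, adjusted p = 8.81e-05 by edgeR). Leaving out any single library gave between 2.34 and 2.55, and the gene was called in each of those 4 fits.

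The gene next to it, Ifi27, encodes a related protein of the nuclear envelope and mitochondria (ENSMUSG00000064215, chr12:103434211-103440239). Its level was 23.9 and 31.4 CPM in WT against 58.0 and 50.7 CPM in the knockout, again without overlap. The log2 fold change was 0.97 ± 0.16 (adjusted p = 0.0108). Without knockout replicate 1 it was 0.87 with an adjusted p of 0.0564, so that its call depended on that library. Ifi27 and Ifi27l2a lie within 9.47 kb of chromosome 12, and as related neighbours they may share reads, since how multiply mapped reads were counted is not stated.

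Lgals3bp, a secreted glycoprotein that binds galectins, was the other member to rise (ENSMUSG00000033880, chr11:118392751-118402092). It stood at 14.2 and 20.4 CPM in WT against 34.9 and 31.0 CPM in the knockout. The groups did not overlap, and the lower knockout library was further above the higher WT library than the WT libraries were from each other. The log2 fold change was 0.92 ± 0.18 (adjusted p = 0.0269). The adjusted p was 0.0892 without WT replicate 1, with a log2 fold change of 0.69, and 0.129 without knockout replicate 1, with 0.83.

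**Figure D2:**
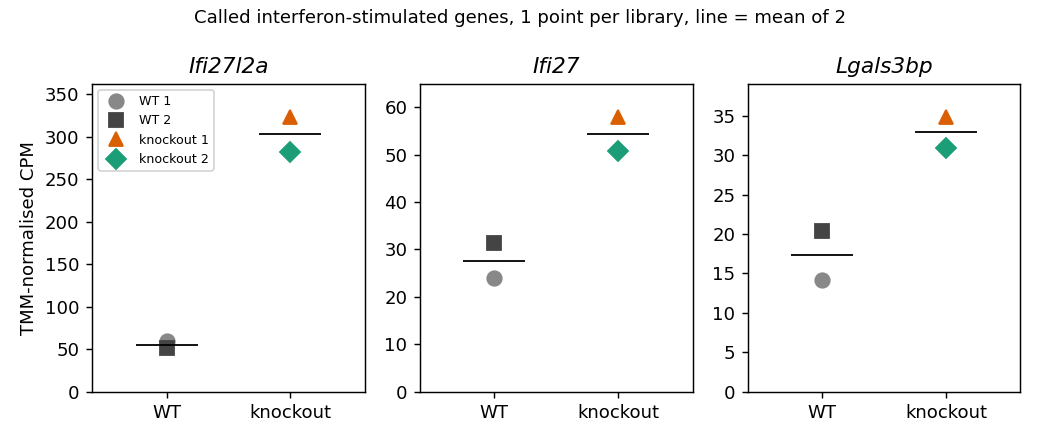
CPM in each of the 4 libraries for the 3 members that were called, with 1 mark per library, a horizontal line at the mean of each group of 2 and axes that start at 0. The mean of Ifi27l2a is 55.5 CPM in WT and 303 CPM in the knockout, and no knockout point overlaps a WT point in any of the 3 genes.

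Counted per kilobase of exon, which allows levels of different genes to be set side by side, Ifi27l2a was also the most abundant member. It reached 128 and 112 CPM per kb in WT and 699 and 610 CPM per kb in the knockout. Next by the mean over the 4 libraries came Ifi27 at 28.0, the membrane tether Bst2 at 10.4 and Lgals3bp at 8.82 CPM per kb. The order of the last pair differed between the groups, since Lgals3bp was below Bst2 in WT (4.99 and 7.18 against 10.2 and 10.3 CPM per kb) and slightly above it in each knockout library (12.3 and 10.9 against 12.1 and 9.25 CPM per kb). Bst2, which holds budding viruses at the cell surface, stood at 9.19 and 9.29 CPM in WT against 10.9 and 8.36 CPM in the knockout, so the knockout libraries lay on either side of WT. Reads from Ifi27l2a made up 17.4% and 14.4% of the CPM summed over the 40 members in WT, and 39.0% and 44.3% in the knockout. That sum was 339 and 359 CPM in WT against 831 and 637 CPM in the knockout. Over the 37 members that were not called it was 242 and 256 CPM in WT, 414 CPM in knockout replicate 1 and 273 CPM in knockout replicate 2. For those 37, the first knockout library was thus at 1.66 times the WT mean and the second at 1.10 times, with the WT libraries at 0.972 and 1.03 times.

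The knockout libraries were therefore described separately. Knockout replicate 1 was above both WT libraries for 38 of the 40 members, and knockout replicate 2 for 24. Among all tested genes those shares were 36.5% and 36.7%. The members' median distance from the WT mean on the log2(CPM + 0.5) scale was 0.74 in knockout replicate 1 and 0.18 in knockout replicate 2, where the medians of all genes were 0.005 and 0.007. Within the knockout group, replicate 1 was the higher library for 38 of the 40 members, with Irf1 and Oas2 as the exceptions, and for 50.1% of all tested genes. Within WT, replicate 2 was the higher one for 28 of the 40 and replicate 1 for 12, where replicate 1 was higher for 50.1% of all tested genes. On the same log2 scale the members' median of WT replicate 2 minus WT replicate 1 was 0.16, with -0.0002 for all tested genes. With knockout replicate 1 left out, only Ifi27l2a was called, 27 members had a positive log2 fold change, the members' median was 0.19, and 1.24% of all genes were called higher. With knockout replicate 2 left out, 13 members were called higher (Irf7, Irf9, Ifit3, Oasl2, Rsad2, Gbp2, Gbp3, Igtp, Iigp1 and Rtp4 beside the 3), the median was 0.82, and 1.93% of all genes were called higher. In those fits the lone knockout library is assumed to vary like the WT libraries.

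**Figure D3:**
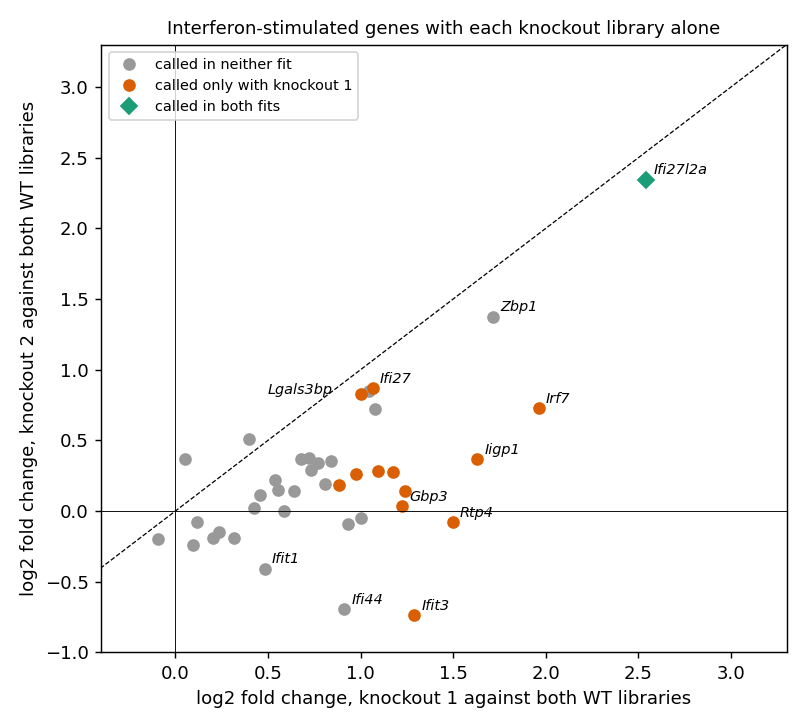
Each point is a member, placed by its edgeR log2 fold change with knockout replicate 1 alone (horizontal) and with knockout replicate 2 alone (vertical) against both WT libraries; the dashed line marks equal values and the colours which fits called it. Only Irf1 and Oas2 lie above the line, and the medians are 0.82 and 0.19.

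Among the sensors of foreign nucleic acid, no member passed the test. Zbp1, which senses left-handed nucleic acid and can start necroptosis, had 3 and 17 counts in WT against 59 and 26 in the knockout. In CPM these were 0.284 and 1.33 against 2.80 and 2.22, without overlap, and the log2 fold change was 1.58 ± 0.49 (adjusted p = 0.164). At 3 counts the lowest library is at the limit of what this depth measures, and without WT replicate 2 the gene was called, with 3.13 (adjusted p = 0.021). Ifih1, the sensor MDA5 of long double-stranded RNA, stood at 7.58 and 8.51 CPM in WT against 12.9 and 10.4 CPM in the knockout, a log2 fold change of 0.54 ± 0.18 (adjusted p = 0.202). Ddx58, the sensor RIG-I, and Dhx58, a regulator of both sensors, gave log2 fold changes of 0.31 and 0.66 (adjusted p = 0.537 and 0.553). Dhx58 was above WT only in knockout replicate 1, at 2.66 CPM against 1.28 CPM in replicate 2 and 1.14 and 1.48 CPM in WT.

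The transcription factors of the set differed from each other. Irf7, which amplifies type I interferon production, stood at 4.45 and 4.29 CPM in WT, 17.1 CPM in knockout replicate 1 and 7.25 CPM in knockout replicate 2. Both knockout libraries were above WT, but they were further from each other than the lower one was from WT, and the log2 fold change was 1.51 ± 0.44 (adjusted p = 0.229). DESeq2 called Irf7, with an adjusted p of 0.00681. Irf9, the DNA-binding partner of STAT2, stood at 6.73 and 7.96 CPM in WT against 14.5 and 8.87 CPM in the knockout (0.69 ± 0.24, adjusted p = 0.214). For Stat2 the log2 fold change was 0.40 (adjusted p = 0.38). Irf1, an early target of type II interferon, gave 10.8 and 10.5 CPM in WT against 11.0 and 13.7 CPM in the knockout (0.21, adjusted p = 0.659), and was one of the members that were higher in knockout replicate 2 than in replicate 1. Irf8, a factor of myeloid cells, lay within the WT range in both knockout libraries, with a log2 fold change of 0.04 (adjusted p = 0.968).

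None of the antiviral effectors outside the called genes passed the test in the fit of all 4 libraries, and many were high in knockout replicate 1 alone. Samhd1, which breaks down nucleotides that viruses need, came nearest. It stood at 17.7 and 16.2 CPM in WT against 28.0 and 22.1 CPM in the knockout, with no overlap (0.57 ± 0.16, adjusted p = 0.115). Ifit3, one of the proteins that hold back viral RNA translation, showed the other pattern. Its level was 6.06 and 7.80 CPM in WT, 17.1 CPM in knockout replicate 1 and 4.18 CPM in knockout replicate 2, so that the knockout libraries were the highest and the lowest of the 4. Its log2 fold change was 0.66 ± 0.88 (adjusted p = 0.839), and it was -0.74 without knockout replicate 1 and 1.29 without knockout replicate 2.

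The neighbours Ifit1, Ifit2 and Ifit3 lie within 99.3 kb of chromosome 19. Ifit1 had the same order of libraries as Ifit3, with 4.45 and 5.23 CPM in WT against 6.80 and 3.67 CPM in the knockout, whereas Ifit2 was at 6.25 and 6.55 CPM in WT against 11.2 and 7.33 CPM in the knockout. Rsad2 (viperin, a radical enzyme that makes a chain-ending nucleotide) and its neighbour Cmpk2 on chromosome 12 are 37.1 kb from end to end. Rsad2 gave a log2 fold change of 0.85 (adjusted p = 0.312) and Cmpk2 one of 0.12 (adjusted p = 0.898). Among the oligoadenylate synthetases and their relatives, Oasl2 stood at 3.89 and 4.53 CPM in WT against 9.55 and 5.12 CPM in the knockout (0.83 ± 0.29, adjusted p = 0.225). Oas1a gave 0.94 (adjusted p = 0.281) and Oas2 0.45 (adjusted p = 0.546), with counts that near-identical copies of Oas1 may share. Mx1, a GTPase that blocks viral replication, had 8 and 14 counts in WT against 41 and 20 in the knockout (0.97, adjusted p = 0.30). The kinase Eif2ak2 (PKR), which stops translation on sensing double-stranded RNA, gave 0.59 (adjusted p = 0.287).

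In all, 7 members were above both WT libraries in knockout replicate 1 and below both in knockout replicate 2. They were Ifit1, Ifit3, Ifi44, Cmpk2, Bst2, Dtx3l and Parp14, and the same pattern was seen in 6.6% of all tested genes. Another 7 were above WT in replicate 1 and within the WT range in replicate 2, namely Dhx58, Isg15, Parp9, Gbp3, Gbp7, Xaf1 and Rtp4, against 6.91% of all genes.

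None of the members that act through ubiquitin-like proteins or ADP-ribose passed the test. Isg15, the ubiquitin-like protein that is attached to newly made proteins, had 12 and 20 counts in WT against 55 and 15 in the knockout. In CPM these were 1.14 and 1.56 against 2.61 and 1.28, so that only knockout replicate 1 was above WT (0.59, adjusted p = 0.604). Usp18, which removes ISG15 and also damps the type I receptor, gave 0.65 (adjusted p = 0.401). The ubiquitin ligase Trim25, which acts on RIG-I, was the one member lower in both knockout libraries, at 10.0 and 11.0 CPM in WT against 9.89 and 9.21 CPM in the knockout (-0.14, adjusted p = 0.793). Parp14, Dtx3l and Parp9, an ADP-ribosylation group within 140 kb of chromosome 16, gave log2 fold changes of 0.03, -0.05 and 0.43. Dtx3l and Parp9 overlap on opposite strands over 458 exon bases, and the counts were strand-specific.

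The interferon-inducible GTPases, which attack the vacuoles of intracellular microbes, included 3 guanylate-binding proteins within 108 kb of chromosome 3. Gbp2 stood at 9.19 and 10.5 CPM in WT against 18.2 and 11.3 CPM in the knockout (0.60, adjusted p = 0.257). Gbp3 stood at 6.63 and 8.12 CPM in WT, 17.3 CPM in knockout replicate 1 and 7.59 CPM in knockout replicate 2 (0.78, adjusted p = 0.508). For Gbp7 the log2 fold change was 0.34 (adjusted p = 0.497). Of the immunity-related GTPases, Igtp stood at 7.49 and 5.31 CPM in WT against 13.6 and 7.76 CPM in the knockout (0.77, adjusted p = 0.26). Iigp1 stood at 10.7 and 7.57 CPM in WT, 28.2 CPM in knockout replicate 1 and 11.8 CPM in knockout replicate 2 (1.16 ± 0.55, adjusted p = 0.505), and Irgm1 gave 0.38 (adjusted p = 0.427). In each of Gbp2, Igtp and Iigp1 knockout replicate 2 was just above the higher WT library. Counts in these families of close copies are uncertain, and Igtp shares 162 exon bases on its own strand with Irgm2.

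The remaining members were Ifi35, a scaffold that binds other interferon-induced proteins, with 0.54 (adjusted p = 0.266), Xaf1, which counters inhibitors of cell death, with 0.26 (adjusted p = 0.709), and Rtp4 with 0.98 (adjusted p = 0.516). Rtp4, a chaperone of receptors, stood at 2.94 and 3.51 CPM in WT, 9.17 CPM in knockout replicate 1 and 3.07 CPM in knockout replicate 2. Without knockout replicate 2 it was called higher with 1.50, and without knockout replicate 1 the value was -0.08.

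Members with and without the promoter element were compared by their values. The 15 members with an ISRE core reached a median log2 fold change of 0.59, and the 14 without one in the window 0.50. Their median distance from WT was 0.76 and 0.71 in knockout replicate 1 and 0.12 and 0.22 in knockout replicate 2. Of those 29, only Lgals3bp was called, whose window holds no ISRE core. Outside the set, 349 other tested genes had an ISRE core in a promoter entry, with a median log2 fold change of 0.06, and 6 of them (1.72%) were called higher, against 1.46% of the 9853 tested genes with a promoter entry.

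Upstream of the members, none of 11 interferon genes (Ifnb1, 4 Ifna genes, Ifnk, Ifne, Ifnz, Ifng, Ifnl2 and Ifnl3) had a count in any library. At 3 counts the depth allows a level of up to 0.284, 0.234, 0.143 and 0.256 CPM in the 4 libraries in order, for counting error only. Of a list of 10 receptors and downstream signalling genes, 9 were tested, and edgeR, DESeq2 and limma-voom called none, with a median log2 fold change of 0.03. At an unadjusted p below 0.05, 1 was higher and 1 lower (Ifngr2). Ifnar1 and Ifnar2, the chains of the type I receptor, gave 0.03 (adjusted p = 0.959) and 0.42 (adjusted p = 0.648). Ifngr2, a chain of the type II receptor, was lower in both knockout libraries, at 31.8 and 39.5 CPM against 47.3 and 47.4 CPM in WT (-0.41, adjusted p = 0.197). Jak1, the kinase used by all interferon receptors, gave -0.25 (adjusted p = 0.425).

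Negative regulators of the pathway were tested for 7 of 8 genes, with none called by the same 3 tools, 1 higher at an unadjusted p below 0.05 (Socs3), and a median of 0.08. Socs3, a target and brake of cytokine receptors, stood at 2.75 and 2.73 CPM in WT, 7.37 CPM in knockout replicate 1 and 3.07 CPM in knockout replicate 2 (0.99, adjusted p = 0.299). Of 12 genes that lead from sensors to interferon production, 10 were tested and the 3 tools called none, 0 passed at an unadjusted p below 0.05, and the median was 0.12. Myd88, the adaptor of Toll-like receptors, stood at 4.36 and 3.90 CPM in WT against 8.08 and 3.50 CPM in the knockout (0.55), with the knockout libraries as the highest and the lowest of the 4, as for Ifit3.

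Further interferon-stimulated genes outside the set gave a like picture. Of 84 that matched, 71 were tested, 2 were called higher and none lower by edgeR, DESeq2 and limma-voom alike, and the median log2 fold change was 0.41. Across all tested genes edgeR called 1.61% higher and 0.413% lower. At an unadjusted p below 0.05, 28 were higher and none lower, where 8.08% of all tested genes were higher and 5.9% lower. Nlrc5, the factor that drives MHC class I genes, stood at 2.65 and 3.43 CPM in WT against 8.56 and 7.33 CPM in the knockout (1.38 ± 0.23, adjusted p = 0.0135), and without knockout replicate 1 it was 1.25 with an adjusted p of 0.09. Ifi205, a DNA-binding protein of the PYHIN family, stood at 16.8 and 15.6 CPM in WT against 26.0 and 26.4 CPM in the knockout (0.70 ± 0.14, adjusted p = 0.0292). Its call was lost when any single library was left out, at log2 fold changes of 0.64 to 0.75. Uba7, the enzyme that activates ISG15, gave 0.80 ± 0.21 (adjusted p = 0.10). Their summed level was 630 and 656 CPM in WT, 872 CPM in knockout replicate 1 and 715 CPM in knockout replicate 2. The median of the list was 0.17 without knockout replicate 1 and 0.55 without knockout replicate 2.

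Markers of other cell types moved with these values in different libraries. Summed over 9 markers, fat cells stood at 974 and 1169 CPM in WT against 4166 and 3654 CPM in the knockout, and 7 of the 9 were called higher, so that this list was high in both knockout libraries as Ifi27l2a was. Neutrophil markers, by contrast, summed to 0.663 and 1.25 CPM in WT, 31.6 CPM in knockout replicate 1 and 3.07 CPM in knockout replicate 2. S100a8 had 3 and 5 counts in WT against 192 and 13 in the knockout, and S100a9 had 1 and 3 against 219 and 10. Ngp and Camp, which mark young neutrophils, were at 0 in WT and had 87 and 45 counts in knockout replicate 1 and 3 and 1 in knockout replicate 2. T-cell markers summed to 1.33 and 1.48 CPM in WT against 4.94 and 1.71 CPM in the knockout, and natural killer cell markers to 1.52 and 1.72 against 4.14 and 1.28 CPM. B-cell and plasma-cell markers did not share a single pattern, and their 7 genes summed to 32.9 and 30.7 CPM in WT against 44.1 and 36.5 CPM in the knockout. Ms4a1, a B-cell surface protein, had 22 counts in knockout replicate 1 and 0 in each other library. Igkc, the kappa light chain of antibodies and the one gene of the list that was called, had 2 and 7 counts in WT against 98 and 35 in the knockout (log2 fold change 3.33 ± 0.48, adjusted p = 0.00615). It was thus high in both knockout libraries, as was Jchain, the joining chain of secreted antibodies, with 1 and 6 counts against 25 and 12 (adjusted p = 0.21). Ighm, the antibody mu chain, lay between 29.3 and 33.8 CPM in the 4 libraries. Of the 8 neutrophil markers only S100a8 and S100a9 had counts enough to be tested, and neither was called. None of the 8 T-cell and 5 natural killer cell markers had counts enough to be tested, so those sums rest on low counts. The summed neutrophil, T-cell and natural killer cell markers were thus highest in knockout replicate 1. So were the sums for B and plasma cells, fat cells, red blood cells and immediate-early genes. The sums for macrophages, both kinds of dendritic cell, endothelial cells, fibroblasts and muscle fibres were not. In that library 36 of the 40 members were highest, against 25% of all tested genes.

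Macrophage markers, 9 in all, summed to 326 and 379 CPM in WT against 381 and 413 CPM in the knockout, with none called. Plasmacytoid dendritic cell markers, of the cells best known for making type I interferon, summed to between 0.948 and 1.17 CPM. Only 1 of the 4 was tested, Siglech, with 9 and 12 counts in WT against 12 and 11 in the knockout. Such counts are too few to show small changes. Endothelial markers stood at 186 and 203 CPM in WT against 178 and 169 CPM in the knockout. Red blood cell genes summed to 243 and 266 CPM in WT against 549 and 389 CPM in the knockout, with 2 of 5 called. Immediate-early genes, which respond to stress and handling of tissue within minutes, summed to 95.9 and 75.4 CPM in WT, 184 CPM in knockout replicate 1 and 70.1 CPM in knockout replicate 2. Fos was at 59.9 CPM in knockout replicate 1 against 6.16 to 14.5 CPM elsewhere. Fosb, Atf3, Egr1, Junb and Ier2 were also highest in knockout replicate 1. Atf3 stood at 5.02 and 8.27 CPM in WT against 25.2 and 3.33 CPM in the knockout. For Ier2 the margin was small, with 3.51 and 3.43 CPM in WT against 3.76 and 2.30 CPM in the knockout. Jun was highest in WT replicate 1. None of the 7 genes was called. Their log2 fold changes were positive for 5 and negative for 2, Jun and Ier2. Jun stood at 66.0 and 43.7 CPM in WT against 58.1 and 36.3 CPM in the knockout. The part of fat, blood cells, handling, sex or depth in the members' values was not tested.

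**Figure D4:**
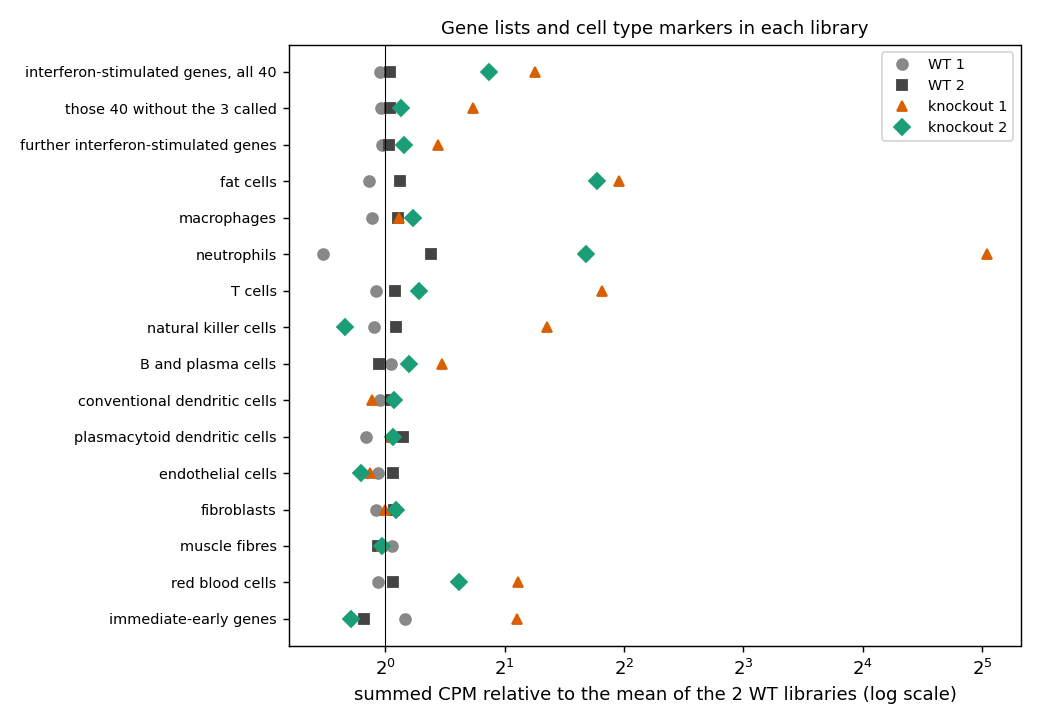
Summed CPM of the members, the further interferon-stimulated genes and the marker lists in each of the 4 libraries, each divided by the mean of the 2 WT libraries, on a log axis with base 2. The fat-cell list is high in both knockout libraries, and the neutrophil list reaches 31.6 CPM in knockout replicate 1 and 3.07 CPM in replicate 2.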

How the data were processed

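The authors deposited, for each library, read counts per Ensembl gene with no normalization. The tools named in the submitters' processing notes are Trimmomatic, STAR and DESeq2, with build GRCm38 (mm10). Their versions and the handling of multiply mapped reads are not stated. Symbols and coordinates came from GENCODE M21, which matched 55480 of the 55573 IDs. On overlapping genes the counts were checked to be strand-specific.

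Genes were filtered by filterByExpr of edgeR 4.0.16 (minimum count 10, minimum total 15), scaled by TMM (trimmed mean of M values), and compared with its robust quasi-likelihood F test in R 4.3.3, with Benjamini-Hochberg adjustment over all 13076 genes and a threshold of 0.05. CPM are TMM-normalised. Standard errors come from the F statistic. The common biological coefficient of variation was 13.6%. The test was tried on simulated data. DESeq2 1.42.0, limma 3.58.1 (voom), other scalings and filters, a replicate term and leaving out each library were alternatives. The members and all gene lists were chosen with earlier results of these data known. All members could be named. In pathway and marker lists, naming was mostly limited to called genes, the 3 with the smallest p and defining genes, and not all of these were named. Some genes of the pathway and marker lists count in the list totals but are not reported here by name.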

Additional observations from a re-analysis of the deposited data

How the results depend on the processing

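Across 5 other scalings and filters, limma-voom and an earlier quasi-likelihood method of edgeR (added after seeing the data, 323 genes called), the same 3 members were called. In those fits 1.33% to 1.91% of all tested genes were called higher. Without a filter on low counts 476 genes were called instead of 265. DESeq2 called 4 members, where it called 1.79% of all tested genes higher. With the replicate number as a block 5 members were called, with Irf7 (1.38, adjusted p = 0.0322) and Iigp1 (1.04, adjusted p = 0.0273) in addition. That fit called 2.10% of all tested genes higher. Deviations of same-numbered libraries correlated at 0.038. With 2 libraries a group this value cannot decide whether equal numbers pair libraries, and the labels do not say. Leaving out each library in turn gave 196 to 318 called genes, 1 to 13 members called higher and 0 lower, a median of 0.19 to 0.82, 24 to 38 members without overlap on the higher side and 1 to 8 on the lower. Signs turned in these fits for 12 members, whose log2 fold changes ranged from -0.41 to 0.48 for Ifit1, -0.74 to 1.29 for Ifit3, -0.69 to 0.91 for Ifi44, -0.20 to 0.32 for Cmpk2, -0.15 to 0.23 for Bst2, -0.051 to 1.00 for Dhx58, -0.10 to 0.93 for Isg15, -0.0032 to 0.59 for Gbp7, -0.081 to 1.50 for Rtp4, -0.19 to 0.20 for Parp14, -0.090 to 0.16 for Irf8 and -0.24 to 0.094 for Dtx3l. They also turned for Ifnar1 (-0.13 to 0.23), Pias4 (-0.50 to 0.051) and Myd88 (-0.24 to 0.97). The cause was not tested. The counts without overlap are not comparable with those of all 4 libraries, where the shares of all genes were 23% and 21.7%. With a knockout library left out, only the other must pass both WT libraries. Knockout replicate 1 was above both for 38 members and 36.5% of all genes, and below both for 1 and 35.7%. For knockout replicate 2 these were 24 and 36.7%, and 8 and 35.4%. With 2 libraries a group and members at a few CPM, such as Isg15, Ifi44 and Zbp1, small differences were not detectable at this depth.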
